A study of Mus musculus with 6 samples.

Results

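Homing and chemotaxis receptors are the G protein coupled receptors by which a B cell finds its place in a lymphoid organ. The group described here has 8 genes, Cxcr5, Cxcr4, Ccr7, Ccr6, S1pr1, S1pr2, S1pr4 and Gpr183, taken by symbol from the 37620 genes of the deposited count table, and each symbol matched 1 row. The study measured total RNA of splenic B cells from C57Bl/6 mice aged 4 months. The cells were cultured with anti-CD40 (1 µg/ml) and IL-4 (12.5 µg/ml), spin-infected at 24 h and 48 h with a retrovirus, and sorted at 96 h for the mCherry marker of infection. One group carried the vector with Sox2 (pMIR-Sox2, 3 libraries) and the other the empty vector (pMIR, 3 libraries), so both groups were activated, infected and sorted. The labels do not give the promoter of the vector. Nor do they say whether replicates came from different mice, so a p-value here reflects only how far these libraries differed, which may be technical.

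CXCR5 binds CXCL13 and draws B cells into follicles, whereas CCR7 binds CCL19 and CCL21 and draws activated B cells towards the T cell zone. GPR183, also called EBI2, follows an oxysterol to the outer follicle, and CXCR4 follows CXCL12 to the dark zone of germinal centres and to bone marrow. CCR6 binds CCL20. Of the receptors for sphingosine 1-phosphate, S1PR1 promotes exit into blood and lymph, S1PR2 confines germinal centre B cells to the follicle, and S1PR4 is found mainly on blood and lymphoid cells. Most of them signal through inhibitory G proteins, and S1PR2 through G alpha 13.

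Each pMIR-Sox2 library held 17153805 to 20770447 gene counts, and each pMIR library 21421769 to 27692437. Values below are CPM, counts scaled to the size of their library, with SD over n = 3 libraries per group. Sox2 held 21528, 14536 and 10763 counts in the pMIR-Sox2 libraries, against 20, 7 and 37 in the pMIR libraries. On the first principal component pMIR-Sox2 replicate 3, the library with the fewest Sox2 counts, lay nearest to pMIR. Of 7 B cell markers 5 fell and 1, Pax5, rose (edgeR adjusted p under 0.05), beside 20.0% and 23.2% of all genes tested. The 7 B cell markers summed to 2344 to 2942 CPM in pMIR-Sox2 and 3676 to 4684 CPM in pMIR. Among T cell markers, Cd3d, Cd3e, Cd3g, Cd4 and Cd8a each stayed at or below 0.238 CPM in every library. The summed level of the 7 T cell markers was 271 to 354 CPM in pMIR-Sox2 and 161 to 223 CPM in pMIR, and nearly all of it was Thy1. Monocyte markers summed to 29.8 to 36.5 CPM in pMIR-Sox2 and 18.4 to 21.8 CPM in pMIR, most of it Emr1. Of those tested Lyz2, Itgam and Emr1 rose, and Csf1r did not pass that threshold (log2 fold change −0.62). Plasma cell markers summed to 337 to 450 CPM in pMIR-Sox2 and 436 to 605 CPM in pMIR, most of it Xbp1. Of these Prdm1 rose (log2 fold change 1.19), and Xbp1 (−0.42) and Igj (−4.36) fell. Neutrophil, NK cell and erythroid lists each summed to 0.464 CPM or less in every library, with S100a8, S100a9, Ncr1, Hbb-b1 and Hba-a1 at 0 in all libraries. The part of any of these in the results was not tested. In bulk RNA, fewer cells that express a gene and less of its RNA per cell cannot be told apart.

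Setting pMIR-Sox2 against pMIR addresses how receptor transcripts differ once an activated B cell carries Sox2. Of the 8 receptors, all of which passed the filter on low counts, 5 fell (Cxcr5, Gpr183, Ccr6, S1pr4 and Ccr7) and 2 rose (S1pr1 and S1pr2). Cxcr4 did not pass the threshold, an adjusted p of 0.05 in the unpaired quasi-likelihood test of edgeR over all genes tested. Over all 12899 genes tested, 20.0% fell, 23.2% rose and 43.2% passed in either direction. The median log2 fold change was −0.97 over the receptors and −0.02 over all genes tested. No overlap between the groups' libraries was seen in 6 of the 8 receptors, 4 lower and 2 higher, against 27.6% of all genes tested that were lower, 28.9% that were higher and 56.5% in all.

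Leaving out pMIR-Sox2 replicate 1, 2 or 3 gave 3, 3 and 5 falls among the receptors, against 14.3, 14.7 and 21.7% of all genes tested, and 2, 1 and 2 rises, against 18.9, 19.1 and 25%. Leaving out pMIR replicate 1, 2 or 3 gave 4, 4 and 3 falls, against 13.5, 17.9 and 14% of all genes, and 2 rises each time, against 17.9, 20.9 and 18.3%. With the replicate number as a block, 4 receptors fell and 2 rose, against 25.7% and 27.0% of all genes. With no filter beyond 1 count, 2 fell and 1 rose, against 11.1% and 15.3% of all genes.

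**Figure D1:**
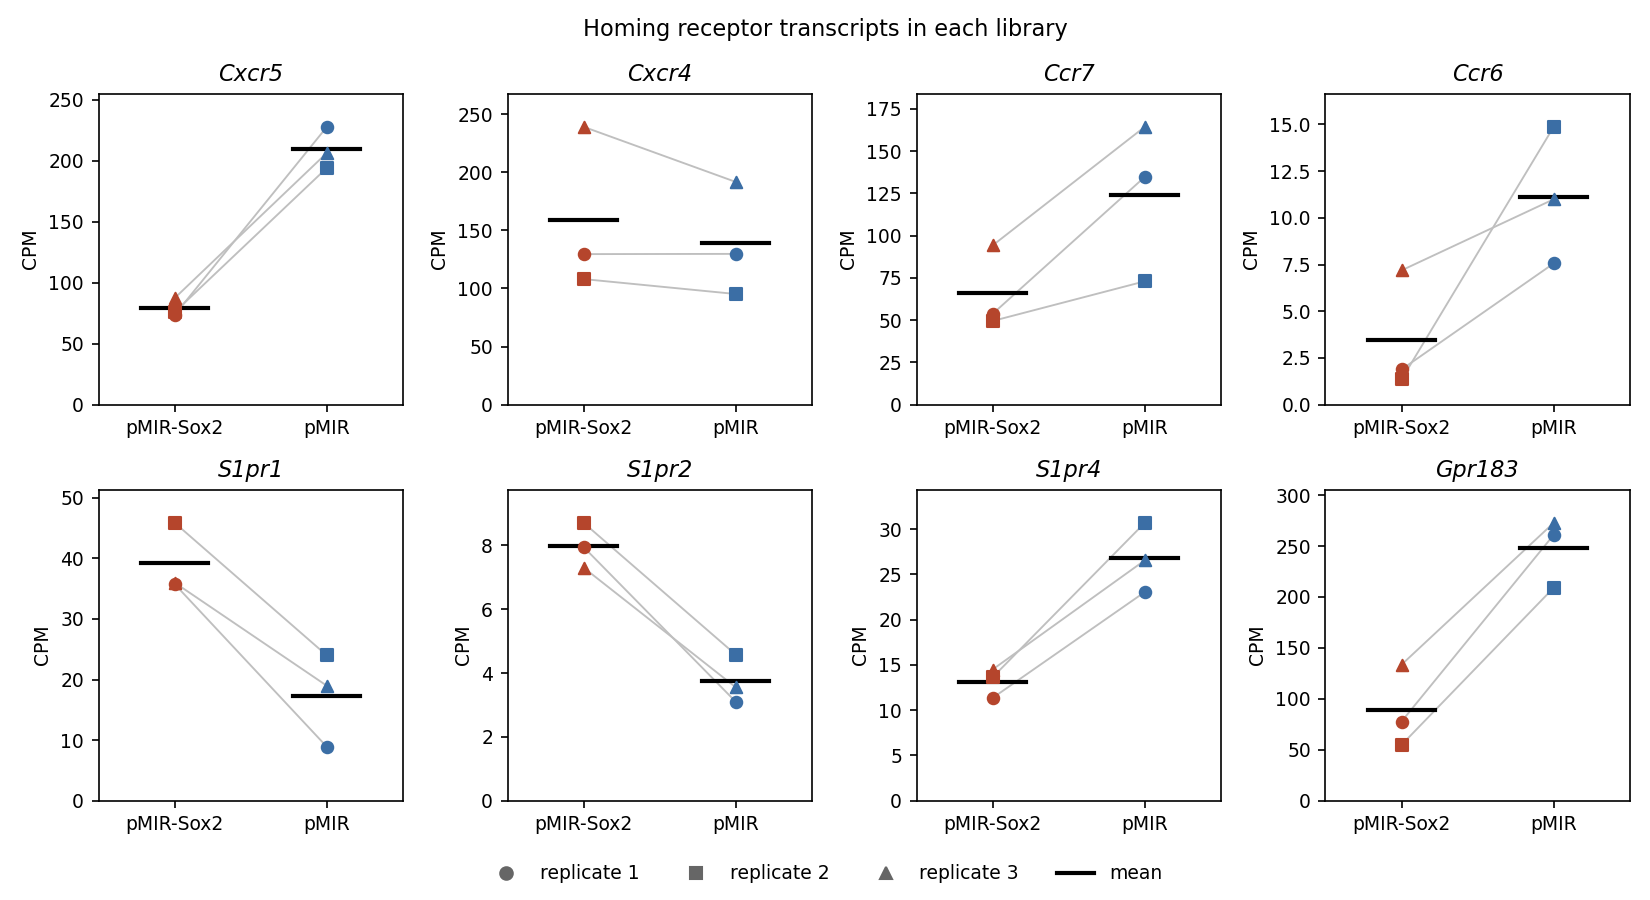
Level of each receptor (vertical axis, CPM from 0) in each library of pMIR-Sox2 (left, red) and pMIR (right, blue). Symbols give the replicate number, thin lines join libraries with the same number and black bars are means of 3 libraries; S1pr1 and S1pr2 lie higher in all pMIR-Sox2 libraries than in any pMIR library, and Cxcr5, Ccr6, S1pr4 and Gpr183 lie lower.

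Reference promoters, 250 bases before to 50 bases after a gene's start, were found for Cxcr4, Ccr6, S1pr2, S1pr4 and Gpr183 in the RefSeq table on GRCm38.p6. They were searched on both strands for CATTGT and CTTTGT, letters of the consensus that SOX proteins bind. Of the 6 promoters of these 5 genes (Ccr6 has 2 annotated starts) 2 held CTTTGT on the opposite strand, read as ACAAAG, and none held CATTGT. Either motif stood in 28.6% of the 32851 promoters of the table. The 2 promoters with a match belong to 1 receptor that rose and 1 that fell, and they are shown 5′ to 3′ on the strand of the gene, with the match in capitals. That of S1pr2 is chr9:20976744-20977043, minus strand, with the match beginning at −90 from the start. That of Gpr183 is chr14:121965144-121965443, minus strand, with the match beginning at −124.
S1pr2: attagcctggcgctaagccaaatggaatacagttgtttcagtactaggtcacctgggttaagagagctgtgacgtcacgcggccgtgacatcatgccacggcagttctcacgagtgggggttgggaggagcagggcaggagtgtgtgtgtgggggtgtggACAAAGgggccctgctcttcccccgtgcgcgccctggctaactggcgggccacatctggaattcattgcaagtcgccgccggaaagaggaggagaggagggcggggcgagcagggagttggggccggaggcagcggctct
Gpr183: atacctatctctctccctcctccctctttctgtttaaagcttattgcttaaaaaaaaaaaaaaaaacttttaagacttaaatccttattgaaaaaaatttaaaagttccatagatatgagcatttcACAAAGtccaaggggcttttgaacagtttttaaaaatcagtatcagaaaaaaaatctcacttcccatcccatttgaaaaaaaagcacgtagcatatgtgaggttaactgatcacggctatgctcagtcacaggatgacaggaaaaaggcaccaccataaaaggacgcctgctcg
The letters do not show that a protein binds there. The promoter of S1pr2 is 62.0% G and C and that of Gpr183 35.3%.

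Cxcr5 (ENSMUSG00000047880), the follicle receptor, was read at 73.7, 75.9 and 87.5 CPM in pMIR-Sox2 replicates 1 to 3, against 228, 194 and 207 CPM in pMIR replicates 1 to 3. The groups lie far apart, and the highest and lowest library within a group differ by a factor of 1.19 in pMIR-Sox2 and 1.17 in pMIR. Cxcr5 fell by 1.41 on the log2 scale (SE 0.11, edgeR adjusted p = 3.74e-05), to a level 2.65-fold below that of pMIR. Among the receptors called lower it had the smallest SE. Within pairs of the same replicate number the log2 differences were −1.63, −1.35 and −1.24. On GRCm38 the gene lies on chromosome 9 from 44511787 to 44561877 on the minus strand, and 110 of its 3332 exonic bases are shared with Bcl9l on the other strand. Bcl9l also fell (log2 fold change −1.03 ± 0.12 (SE), edgeR adjusted p = 0.000234). The strand setting of the counting is not given in the sources used here, so reads in those bases cannot be told apart.

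Gpr183 (ENSMUSG00000051212), the oxysterol receptor, was read at 77.7, 54.8 and 134 CPM in pMIR-Sox2 replicates 1 to 3, against 261, 209 and 273 CPM in pMIR replicates 1 to 3. Every pMIR-Sox2 library lies below every pMIR library, and pMIR-Sox2 replicate 3 lies nearest to them. The gene fell by 1.48 on the log2 scale (SE 0.28, edgeR adjusted p = 0.00306). Within replicate numbers the differences were −1.75, −1.93 and −1.03. On GRCm38 Gpr183 lies on chromosome 14 from 121952551 to 121965195 on the minus strand, within the span of Ubac2, which is read from the other strand, and shares no exonic base with it. Ubac2 rose (log2 fold change 0.65 ± 0.12 (SE), edgeR adjusted p = 0.00312), the opposite direction to Gpr183.

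Ccr7 (ENSMUSG00000037944), the receptor for the T cell zone, was read at 53.7, 49.5 and 94.2 CPM in pMIR-Sox2 replicates 1 to 3, against 135, 73.0 and 164 CPM in pMIR replicates 1 to 3. The groups overlap, as pMIR-Sox2 replicate 3 lies above pMIR replicate 2, but in each pair of equal number the pMIR-Sox2 library is the lower one. The fall was of 0.92 on the log2 scale (SE 0.32, edgeR adjusted p = 0.0427), with −1.33, −0.56 and −0.80 within replicate numbers. The gene lies on chromosome 11 from 99144196 to 99155077, minus strand. This call is close to the threshold. Leaving out any 1 of 4 libraries ended it, with an edgeR adjusted p of 0.148 for pMIR-Sox2 replicate 1, 0.184 for pMIR-Sox2 replicate 2, 0.106 for pMIR replicate 1 and 0.147 for pMIR replicate 3. With library totals as the only scaling the edgeR adjusted p was 0.0537, and with the replicate number as a block it was 0.000186. Dendritic cells also carry CCR7, and their 3 markers summed to 6.94 to 7.90 CPM in pMIR-Sox2 and 10.7 to 17.8 CPM in pMIR. Flt3 made up most of that sum and fell (log2 fold change −1.18, edgeR adjusted p = 0.00297). Itgax lay the other way without passing (1.04, edgeR adjusted p = 0.152), and Siglech did not pass the filter on low counts. The part of dendritic cells in the fall of Ccr7 was not tested.

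Ccr6 (ENSMUSG00000040899), the receptor for CCL20, lies on chromosome 17 from 8236043 to 8257141, plus strand, and was low in both groups. It was read at 1.88, 1.35 and 7.19 CPM in pMIR-Sox2 replicates 1 to 3, against 7.56, 14.9 and 10.99 CPM in pMIR replicates 1 to 3. The groups do not overlap, but pMIR-Sox2 replicate 3 lies just below pMIR replicate 1 and 5.31-fold above pMIR-Sox2 replicate 2. Ccr6 fell by 1.70 on the log2 scale (SE 0.54, edgeR adjusted p = 0.0302), and by 2.76 without pMIR-Sox2 replicate 3. With the replicate number as a block the call ended (log2 fold change −1.85 ± 0.64 (SE), edgeR adjusted p = 0.0968). It also ended without pMIR-Sox2 replicate 1 (0.115), pMIR-Sox2 replicate 2 (0.104), pMIR replicate 2 (0.0852) or pMIR replicate 3 (0.0630), and by the DESeq2 Wald test (0.0583).

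Cxcr4 (ENSMUSG00000045382), the CXCL12 receptor, lies on chromosome 1 from 128588199 to 128592293, minus strand. Its level varied with the replicate number in the same order in both groups. It was read at 130, 108 and 239 CPM in pMIR-Sox2 replicates 1 to 3, against 130, 95.2 and 192 CPM in pMIR replicates 1 to 3. In both groups replicate 3 is the highest and replicate 2 the lowest library, and the groups overlap across most of their range. The log2 fold change was 0.19 ± 0.32 (SE, edgeR adjusted p = 0.647), and with the replicate number as a block it was 0.17 ± 0.10 (SE, edgeR adjusted p = 0.169). Within replicate numbers the differences were −0.00, 0.18 and 0.32, each smaller in size than the within-number difference of any other receptor. The sign of the fitted value turned without pMIR-Sox2 replicate 3 (−0.22) and without pMIR replicate 2 (−0.02). The pair with the highest Cxcr4, replicate 3, was also the pair with the highest Ccr7 and Gpr183.

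The receptors for sphingosine 1-phosphate went both ways. S1pr1 (ENSMUSG00000045092), the egress receptor, was read at 35.7, 45.9 and 36.0 CPM in pMIR-Sox2 replicates 1 to 3, against 8.89, 24.0 and 18.96 CPM in pMIR replicates 1 to 3. All pMIR-Sox2 libraries lie above all pMIR libraries, and the spread is wider in pMIR, where replicate 1 stands lowest. S1pr1 rose by 1.19 on the log2 scale (SE 0.30, edgeR adjusted p = 0.0118), a 2.28-fold higher level. The gene lies on chromosome 3 from 115710433 to 115715072, minus strand. The adjusted p was 0.0578 without pMIR-Sox2 replicate 2. The pair differences were 2.01, 0.94 and 0.92. T cells also carry S1PR1, and of the 7 T cell markers Thy1 rose, with 269 to 352 CPM in pMIR-Sox2 and 160 to 222 CPM in pMIR (log2 fold change 0.64, edgeR adjusted p = 0.00782), while Cd3d, Cd3e, Cd3g, Cd4 and Cd8a were at or below 0.238 CPM in every library. The part of this in the rise of S1pr1 was not tested.

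S1pr2 (ENSMUSG00000043895), the confinement receptor, was read at 7.95, 8.71 and 7.30 CPM in pMIR-Sox2 replicates 1 to 3, against 3.10, 4.58 and 3.55 CPM in pMIR replicates 1 to 3. The groups do not overlap and the libraries within each lie close together. It rose by 1.10 on the log2 scale (SE 0.20, edgeR adjusted p = 0.00222), or 2.14-fold, with pair differences of 1.35, 0.93 and 1.04. S1pr2 lies on chromosome 9 from 20962361 to 20976781, minus strand. It had the lowest mean level per length of the receptors in either group, but in pMIR-Sox2 replicates 1 and 2 Ccr6 was lower.

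S1pr4 (ENSMUSG00000044199) was read at 11.3, 13.6 and 14.5 CPM in pMIR-Sox2 replicates 1 to 3, against 23.0, 30.7 and 26.5 CPM in pMIR replicates 1 to 3. The groups do not overlap, and each library of pMIR-Sox2 lies near the middle of the distance between 0 and its pMIR partner. It fell by 1.03 on the log2 scale (SE 0.15, edgeR adjusted p = 0.000728), with pair differences of −1.02, −1.17 and −0.87. S1pr4 lies on chromosome 10 from 81497747 to 81500132, minus strand. S1pr3, a further receptor of this family named after its values were seen, fell too, with 8.08 ± 3.05 CPM in pMIR-Sox2 and 25.7 ± 5.89 CPM in pMIR (SD, n = 3 each; log2 fold change −1.67, edgeR adjusted p = 0.00117). S1pr5 did not pass the filter on low counts. Thus 2 tested receptors for sphingosine 1-phosphate rose and 2 fell.

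**Figure D2:**
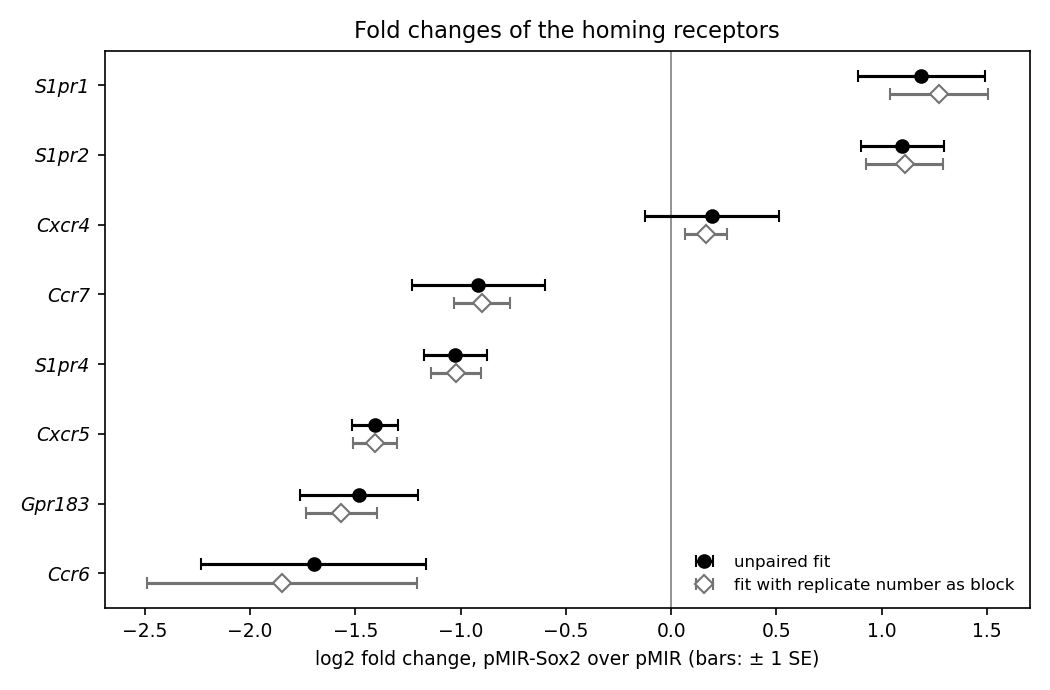
Log2 fold change of each receptor, pMIR-Sox2 over pMIR (horizontal axis), with bars of 1 SE, from the fit without pairing (filled circles) and with the replicate number as a block (open diamonds). S1pr1 and S1pr2 lie above 0, Cxcr4 at 0.19 and 0.17, and the other 5 receptors below 0; the bars of Ccr6 are the widest.

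Levels were compared between receptors only per length, as CPM per kilobase of exon, with exon lengths of GENCODE M21. In pMIR-Sox2 the order of means was Cxcr4 (87.8 ± 38.8), Ccr7 (33.3 ± 12.5), Gpr183 (30.7 ± 14.03), Cxcr5 (23.7 ± 2.22), S1pr1 (12.9 ± 1.90), S1pr4 (5.51 ± 0.681), Ccr6 (1.498 ± 1.39) and S1pr2 (1.00 ± 0.0883). In pMIR it was Gpr183 (85.8 ± 11.7), Cxcr4 (76.8 ± 27.0), Cxcr5 (62.9 ± 5.11), Ccr7 (62.7 ± 23.6), S1pr4 (11.2 ± 1.60), S1pr1 (5.67 ± 2.52), Ccr6 (4.80 ± 1.58) and S1pr2 (0.469 ± 0.0949). In pMIR the first 4 receptors overlap with their neighbours and form 1 tier above the others. In pMIR-Sox2 Cxcr4 stands alone, since its lowest library (59.7) lies above the highest of Ccr7 (47.6), and Ccr7, Gpr183 and Cxcr5 overlap below it. S1pr1 and S1pr4 changed places, without overlap between them in either group. The neighbours Ccr6 and S1pr2 overlap in pMIR-Sox2, and S1pr1 and Ccr6 overlap in pMIR.

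Cxcr4 took 43.1, 40.1 and 48.2% of the summed level of the 8 receptors per length in pMIR-Sox2 replicates 1 to 3, against 22.8, 21.2 and 28.8% in pMIR replicates 1 to 3. The share of Gpr183 was 16.2, 12.7 and 16.9% in pMIR-Sox2, against 28.7, 29.2 and 25.7% in pMIR. Shares of 1 sum depend on each other, so the larger share of Cxcr4 goes with the smaller sums of the others. The sum was 166, 149 and 274 CPM per kilobase in pMIR-Sox2 and 315, 248 and 368 in pMIR. Among all tested genes with an exon length, Cxcr5 stood at percentile 82.3 in pMIR-Sox2 and 93.7 in pMIR. S1pr1 stood at percentile 69.0 in pMIR-Sox2 and 48.2 in pMIR.

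**Figure D3:**
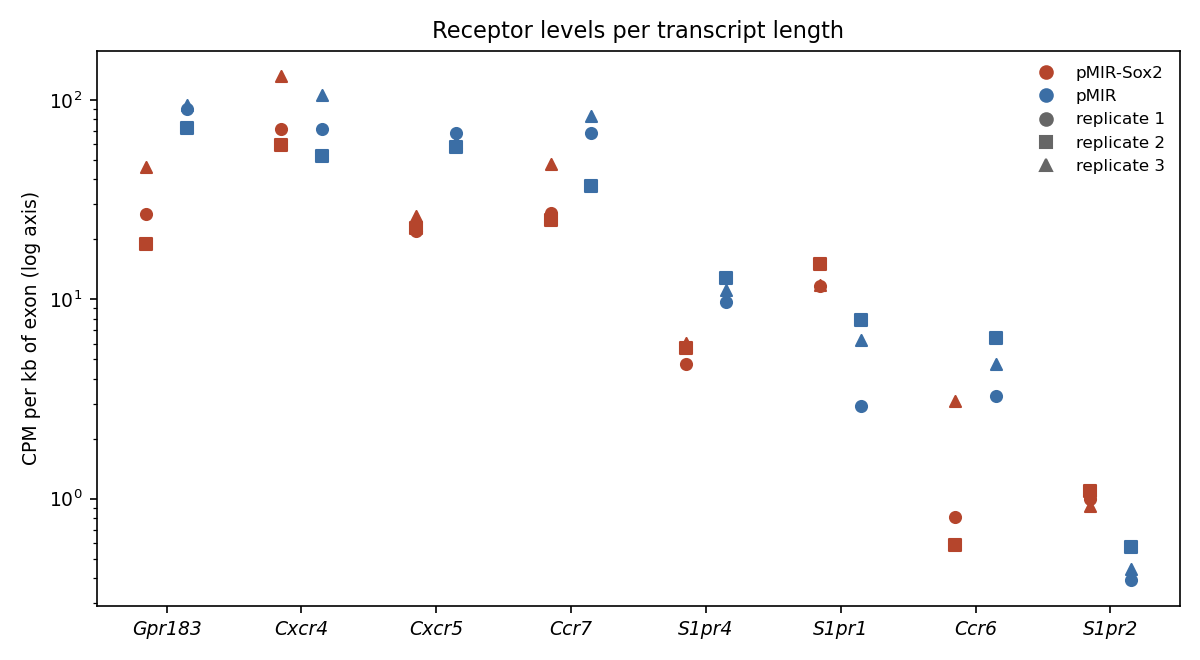
Level of each receptor per kilobase of exon (vertical log axis, CPM per kb) in every library, with pMIR-Sox2 in red left of pMIR in blue and symbols for the replicate number. In pMIR the 4 receptors on the left lie in 1 range, and in pMIR-Sox2 the libraries of Cxcr4 lie above all others of that group.

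Ratios of 2 receptors within a library do not depend on scaling, and 4 were computed as log2 ratios of read counts. The ratio of Cxcr4 to Cxcr5 was 0.81, 0.51 and 1.45 in pMIR-Sox2 replicates 1 to 3, against −0.81, −1.03 and −0.11 in pMIR replicates 1 to 3. Every pMIR-Sox2 library is above every pMIR library. These ratios are not per length, so 0 does not mark equal levels of the receptors. Per length, Cxcr4 lay above Cxcr5 in pMIR replicates 1 (71.7 against 68.4 CPM per kilobase) and 3 (106 against 62.0), and below it in pMIR replicate 2 (52.6 against 58.3). The difference of means was 1.57, a 2.98-fold change in the ratio (two-sided exact permutation test, p = 0.1, the smallest that 3 libraries against 3 allow; 0.2 adjusted over the 4 ratios). Within replicate numbers it was 1.63, 1.54 and 1.56. Of the 2 receptors mainly Cxcr4 varied across the pairs. Its highest and lowest library differed by a factor of 2.21 in pMIR-Sox2 and 2.01 in pMIR, against 1.19 and 1.17 for Cxcr5.

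The ratio of S1pr2 to Gpr183 was −3.29, −2.65 and −4.19 in pMIR-Sox2 replicates 1 to 3, against −6.39, −5.51 and −6.25 in pMIR replicates 1 to 3. The groups do not overlap, and the difference was 2.68, or 6.39-fold (two-sided exact permutation test, p = 0.1, adjusted 0.2). Since S1pr2 was higher and Gpr183 lower in every pMIR-Sox2 library than in any pMIR library, that separation and p were fixed beforehand. They add nothing to the values of the single receptors. The ratio of Cxcr5 to Ccr7 averaged 0.32 ± 0.38 in pMIR-Sox2 and 0.83 ± 0.55 in pMIR (SD, n = 3 each; two-sided exact permutation test, p = 0.3, adjusted 0.4). Both of these receptors fell, and the ratio was lower in pMIR-Sox2 in each of the 3 pairs. The ratio of S1pr2 to S1pr1, receptors that both rose, averaged −2.29 ± 0.11 in pMIR-Sox2 and −2.10 ± 0.51 in pMIR (SD, n = 3 each; two-sided exact permutation test, p = 0.9, adjusted 0.9). The difference was −0.18 with all libraries and 0.11 without pMIR replicate 1.

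**Figure D4:**
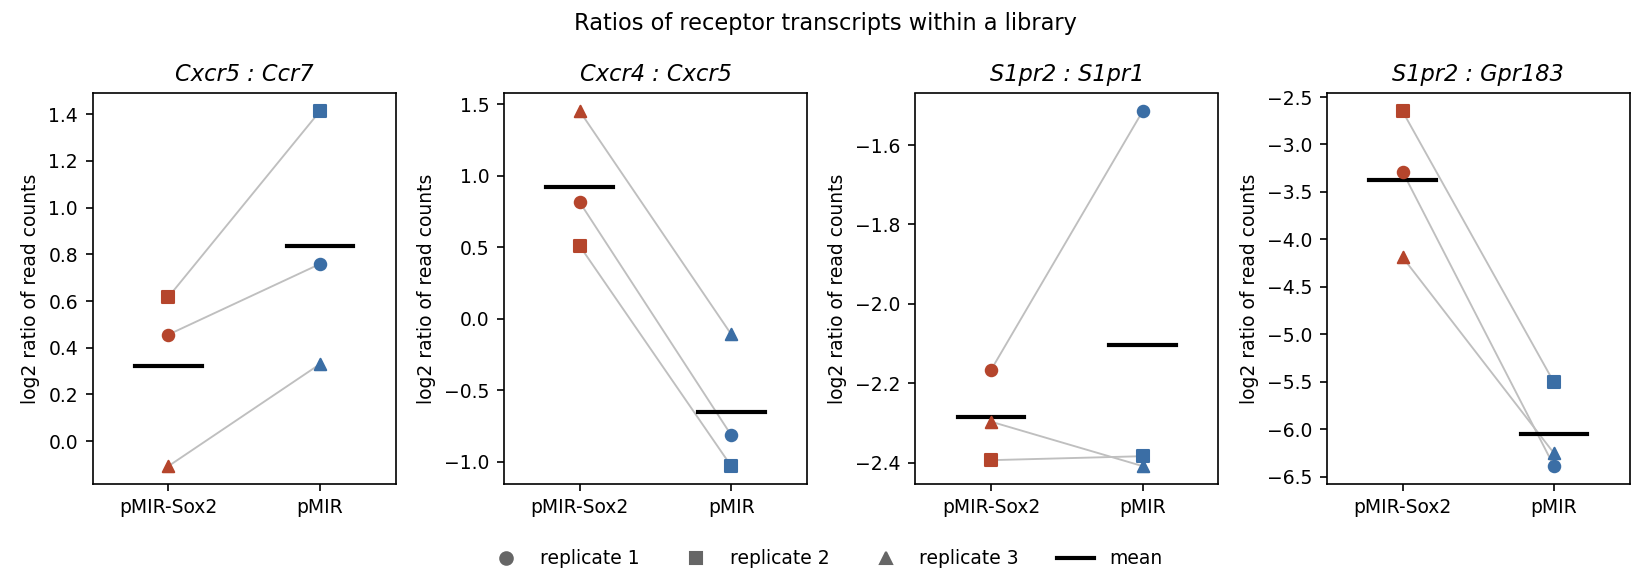
Log2 ratio of the read counts of 2 receptors (vertical axis, a separate range in each panel) in each library of pMIR-Sox2 (left) and pMIR (right), with lines joining equal replicate numbers and black bars for means of 3 libraries. The lines for Cxcr4 to Cxcr5 run nearly parallel, with differences of 1.63, 1.54 and 1.56.

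The genes whose profile over the 6 libraries lay nearest to a receptor were sought among 9778 tested genes with a mean of at least 5 CPM, by the root mean square difference of log2 CPM after centring each gene on its own mean. For Cxcr5 these were Plxnc1 (0.0531) and Gpr132 (0.0561), a lymphocyte receptor described further on. For S1pr4 they were Rdh12 (0.0313) and Igkc, the kappa light chain constant gene (0.0584). Lbh (0.0724) and 1300002E11Rik (0.0746) lay nearest to S1pr2, and Rnf122 (0.203) and 1700049G17Rik (0.231) to S1pr1. Ticam2 (0.147) and Fam167a (0.154) lay nearest to Gpr183, Mreg (0.130) and the phosphatase gene Dusp1 (0.144) to Ccr7, Xkr5 (0.132) and Pnrc1 (0.214) to Cxcr4, and Slpi (0.227) and Ttc21a (0.258) to Ccr6. Being chosen for likeness, these genes share the profile by construction. Mreg, the nearest to Ccr7, was read at 74.8, 51.5 and 120 CPM in pMIR-Sox2 replicates 1 to 3, against 167, 95.0 and 197 CPM in pMIR replicates 1 to 3.

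Genes around the receptors were read in 8 lists with 117 tested genes, of which 31 rose and 44 fell, beside 23.2% and 20.0% of all genes tested. Of 20 other chemokine receptors, 7 passed the filter on low counts, 2 of these rose and 3 fell (median log2 fold change −0.06). Ccr4 had 4.90 ± 2.40 CPM in pMIR-Sox2 and 26.9 ± 5.47 CPM in pMIR (−2.46, edgeR adjusted p = 0.000414). Ccr10 and the atypical receptor gene Ccbp2 also fell, each at under 2 CPM in every library. Cxcr7, an atypical receptor for CXCL12 named after its values were seen, rose (1.18, edgeR adjusted p = 0.0348). That call held when pMIR replicate 3 was left out and ended when any other library was left out, with an edgeR adjusted p from 0.0613 to 0.111. Ccr2, the other riser, was below 1 CPM in every library and passed each time, so the rises then numbered 1.

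Of 16 tested receptors for other lipids and nucleotides, 5 rose and 6 fell (median −0.07). Lpar6, a receptor for lysophosphatidic acid, was read at 58.5, 57.8 and 43.6 CPM in pMIR-Sox2 replicates 1 to 3, against 5.68, 5.86 and 7.25 CPM in pMIR replicates 1 to 3. It rose by 3.09 on the log2 scale (SE 0.16, edgeR adjusted p = 6.60e-06), more than any of the 8 homing receptors. Lpar1, of the same ligand, had 125 counts over the pMIR-Sox2 libraries and 3 over the pMIR libraries. Gpr132, a receptor known from lymphocytes, fell to 70.2 ± 10.9 CPM in pMIR-Sox2, against 182 ± 19.8 CPM in pMIR (SD, n = 3 each; log2 fold change −1.37, edgeR adjusted p = 0.000102).

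Of 15 genes of ligands and their metabolism 8 passed the filter on low counts, and the chemokine genes Cxcl13, Cxcl12, Ccl19 and Ccl20 were not among them. Of the 8, 3 rose and 1 fell (median 0.26). The 3 that rose break down sphingosine 1-phosphate: Sgpp1, a phosphatase (138 ± 20.1 CPM in pMIR-Sox2 and 68.0 ± 2.23 CPM in pMIR; 1.03, edgeR adjusted p = 0.000250), Sgpl1, the lyase (0.69), and Ppap2b, a lipid phosphatase (1.49). The 1 that fell, Sphk1, makes this lipid and had 0.335 ± 0.319 CPM in pMIR-Sox2 and 1.52 ± 0.749 CPM in pMIR (SD, n = 3 each). It did not pass without pMIR-Sox2 replicate 1, pMIR-Sox2 replicate 2 or pMIR replicate 3. Sphk2, of the same family, was read far higher, at 39.9 ± 2.39 CPM in pMIR-Sox2 and 42.7 ± 1.19 CPM in pMIR. It did not pass the threshold (log2 fold change −0.10, edgeR adjusted p = 0.448).

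Of 18 tested genes of G proteins and their effectors, 5 rose, 5 fell and 8 did not pass (median 0.02). Gng2, a gamma subunit, rose to 279 ± 64.2 CPM in pMIR-Sox2, against 50.6 ± 9.89 CPM in pMIR (SD, n = 3 each; 2.47, edgeR adjusted p = 4.43e-05). Pik3cg, the kinase that beta-gamma subunits activate, rose by 1.40 and its adaptor Pik3r6 fell by 1.48 on the log2 scale. Gnai2, the main inhibitory alpha subunit of lymphocytes, had a log2 fold change of 0.12 ± 0.11 (SE, edgeR adjusted p = 0.388), and Gna13, which couples to S1PR2, fell by 0.48 (edgeR adjusted p = 0.00429); both were named after their values were seen. The falls numbered 2 without pMIR-Sox2 replicate 1, pMIR replicate 1 or pMIR replicate 2, and 3 without pMIR replicate 3. In these fits the share of all genes tested that fell ran from 13.5 to 17.9%. The rises numbered 3 without pMIR replicate 1 or pMIR replicate 3, beside 17.9 and 18.3% of all genes tested. With all libraries, 20.0% of all genes tested fell and 23.2% rose.

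Of 15 tested genes that end receptor signalling, 6 rose and 5 fell (median 0.04). Adrbk1, the kinase GRK2 that marks active receptors for arrestin, fell to 319 ± 30.5 CPM in pMIR-Sox2, against 603 ± 23.8 CPM in pMIR (SD, n = 3 each; −0.92, edgeR adjusted p = 0.000276). Of the regulators of G protein signalling, Rgs10 fell (−1.23) and Rgs13, known from germinal centre B cells, rose (2.19) from a low level. The falls numbered 3 without pMIR-Sox2 replicate 1, pMIR-Sox2 replicate 3, pMIR replicate 1 or pMIR replicate 2. The shares of all genes tested were then 14.3, 21.7, 13.5 and 17.9%.

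Of 10 genes known to control a receptor, 5 fell and 1, Stat3, rose (median −0.55). Pou2f2 and Pou2af1, the octamer factor OCT2 and its B cell coactivator, fell by 1.39 and 0.88 on the log2 scale (edgeR adjusted p = 0.000310 and 0.000636). Both are known to be needed, with NF-kB, for Cxcr5 expression in mouse B cells. The part of any gene of this list in the change of a receptor was not tested. Pou2f2 was read at 22.8, 29.5 and 28.5 CPM in pMIR-Sox2 replicates 1 to 3, against 57.5, 87.8 and 66.0 CPM in pMIR replicates 1 to 3, with no overlap of the groups. Relb fell by 0.58. Klf2, known in T cells to activate S1pr1, fell while S1pr1 rose, with 39.0, 59.4 and 147 CPM in pMIR-Sox2 replicates 1 to 3, against 200, 312 and 271 CPM in pMIR replicates 1 to 3. Cd69, whose protein removes S1PR1 from the cell surface, had a log2 fold change of −0.53 ± 0.21 (SE, edgeR adjusted p = 0.0686), and with the replicate number as a block it fell (−0.55, edgeR adjusted p = 0.000259). Both were named after their values were seen. Klf2 did not pass without pMIR-Sox2 replicate 2 (0.0749), Cd69 fell without pMIR-Sox2 replicate 3 (0.00440), and of the 6 libraries only pMIR-Sox2 replicate 3 could be left out with Stat3 still past the threshold.

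Of 32 genes of the motility machinery, 13 fell, 5 rose and 14 did not pass (median −0.13). Vav2, a Rac activator, fell by 0.96, while the adhesion kinases rose, Ptk2b by 1.14 and Ptk2 by 1.78 on the log2 scale (edgeR adjusted p = 6.76e-05 and 0.000126). The rises numbered 9 with the replicate number as a block, beside 27.0% of all genes tested. They numbered 3 without pMIR replicate 1 or pMIR replicate 3, beside 17.9 and 18.3%. Of 11 adhesion molecules other than integrins, 4 rose and 6 fell (median −0.31). Pecam1 rose by 1.16 and Spn, which encodes CD43, by 1.03, and Icam1 fell by 1.22.

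**Figure D5:**
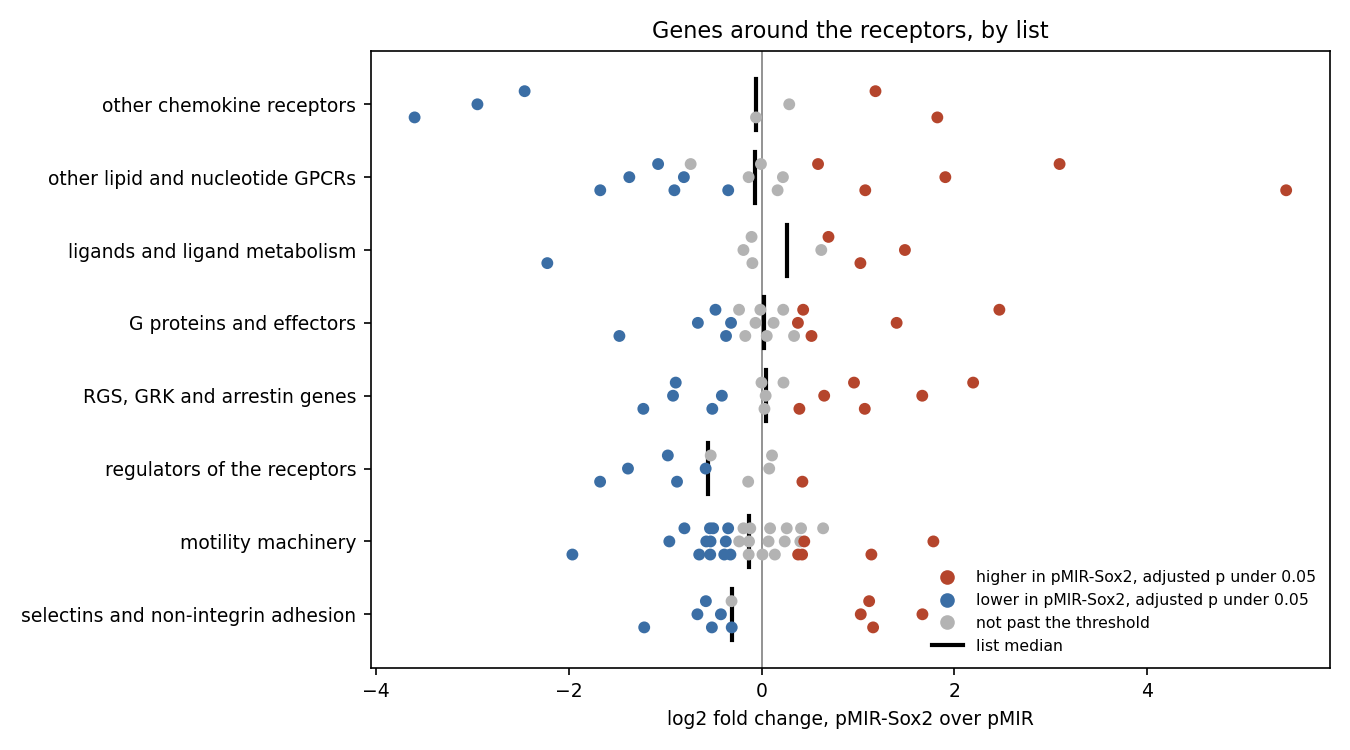
Log2 fold change, pMIR-Sox2 over pMIR (horizontal axis), of the tested genes of 8 lists (rows); points are genes, coloured where the adjusted p is under 0.05 (red higher, blue lower in pMIR-Sox2), and black bars are list medians. The point farthest right is Lpar1, whose fitted value rests on 3 counts in pMIR. Each list holds genes on both sides of 0, with medians from −0.55 to 0.26.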

How the data were processed

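Per the labels, total RNA of infected and sorted B cells was sequenced in 6 libraries. The authors deposited raw counts per gene, using the build mm9, HTSeq 0.6.1p1, SAMtools 0.1.19, Trimmomatic 0.32, Bowtie2 2.2.2 and TopHat2 2.0.11 (no roles stated), per the submitters' processing notes. Which annotation and strand setting were used is not given in the sources used here. Of the table, 5 lines that name no gene stayed out of library sizes and tests; the share of genes was 52.3 to 53.0% in pMIR-Sox2 and 51.9 to 53.2% in pMIR. Receptor counts ran from 25 to 7078 per library, and errors from counting alone are part of the spread given.

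The test was that of edgeR 4.0.16, run in R 4.3.3 (filterByExpr, TMM, robust quasi-likelihood fit, Benjamini-Hochberg over 12899 genes, threshold 0.05). CPM are counts over the library's filtered total times its TMM factor, and an SE is the log2 fold change over the square root of F. The test was also run on simulated counts, with the same dispersion for all genes and a small part of them changed. These data differ in both respects, so that run does not show how the test performs on them. Alternatives were other scalings, filters, DESeq2 1.42.0, limma-voom (limma 3.58.1), each library left out and the replicate number as a block. The titles number the replicates 1 to 3 in both groups and the descriptions give each pair a shared number (8, 9 or 12). Deviations from the group means correlated across genes at 0.242, 0.359 and 0.189 within these pairs. Between libraries of unlike number the correlations ran from −0.241 to 0.0341. The numbers were therefore taken to pair the libraries, but calls in the text are from the unpaired fit unless another is named. Ratios used counts plus 0.5. GENCODE M21 and RefSeq tables, on GRCm38 and not mm9, gave lengths, positions and promoters. No library was identical to another.

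The receptors, lists and tests were chosen with earlier results of these data known. The text names the 8 receptors, from each list the 3 genes past the threshold with the smallest adjusted p, and the 2 genes nearest to each receptor; others were chosen after their values were seen.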

Additional observations from a re-analysis of the deposited data

How the results depend on the processing

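The fewest counts in a library were 25 for Ccr6 and 74 for S1pr2. With no filter beyond 1 count, 21716 genes were tested, and the receptors called were 1 higher and 2 lower, against 2 and 5. Of all genes tested 15.3% were then called higher and 11.1% lower, against 23.2% and 20.0%. S1pr2, Cxcr5 and S1pr4 were the 3 receptors called, and the cause was not tested. With 1 library left out, the receptors that rose numbered 1 to 2 and those that fell 3 to 5. The difference in the log2 ratio of S1pr2 to S1pr1 ran from −0.34 to 0.11 with 1 library left out, the higher without pMIR replicate 1, against −0.18. The log2 fold change of Cxcr4 ran from −0.22 without pMIR-Sox2 replicate 3 to 0.49, with −0.02 without pMIR replicate 2. Of the genes nearest to it, Xkr5 ran from −0.031 without pMIR-Sox2 replicate 3 to 0.48, with −0.017 without pMIR replicate 2, and Pnrc1 from −0.10 without pMIR-Sox2 replicate 3 to 0.38. Cxcr5, S1pr2 and S1pr4 kept direction and call under all 14 alternatives, with log2 fold changes from −1.48 to −1.33, 0.97 to 1.26 and −1.13 to −0.92. The replicate block ended the call of Ccr6 (log2 fold change −1.85) and changed no other receptor's call.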
